A study of Homo sapiens with 18 samples.

Results

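The chemokine ligands CXCL8, CCL3, CCL3L3 and CCL22 and the chemokine receptors CCR7, CXCR4 and ACKR3 were followed in 2 B cell lymphoma lines. They are 7 of 12696 genes named on the array and 9 of its 49576 probes, since CXCL8 and CXCR4 have 2 probes each, and every probe annotated to the 7 symbols was taken. All 7 genes were among the 10697 tested. They were selected on their measured signals and changes in these same arrays, so their values are a description and their adjusted p-values, which come from the fit over all genes, are not independent evidence. DG75 and Raji both derive from Burkitt lymphoma, a tumour of B cells, and of the pair Raji is the line positive for Epstein-Barr virus. Cells of each line were given 50 µM Bay-11, 75 µM TPCK or no treatment for 1 h, with 3 arrays in each of the 6 groups. Bay-11 is used to block activation of the transcription factor NF-kB, and TPCK is a protease inhibitor put to the same use. Each line stands for itself alone, so a difference between the lines is one between these cultures. Whether the 3 arrays of a group were separate cultures is not stated, so p-values reflect only how far these samples spread, perhaps for technical reasons.

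Chemokines are small secreted proteins that direct the movement of leukocytes through G protein-coupled receptors. CXCL8 (interleukin 8) attracts neutrophils, and its gene is a well-known target of NF-kB and AP-1. CCL3 (MIP-1 alpha) is released by activated B cells and macrophages, and CCL3L3 is one of its near-identical gene copies. CCL22 attracts T cells that carry the receptor CCR4. CCR7 guides B and T cells into lymph nodes, CXCR4 holds B cells near sources of CXCL12, and ACKR3 takes up CXCL12 without signalling through G proteins.

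The windows below, from 250 bases before to 50 bases after the annotated start, are shown because CXCL8 was called after treatment and because CCL3 and CCL3L3 are copies whose start regions could be compared. They are RefSeq sequence of build GRCh38.p14, at chr4:73740319-73740618 on the plus strand for CXCL8, at chr17:36090094-36090393 on the minus strand for CCL3, and at chr17:36196709-36197008 on the minus strand for CCL3L3. Capitals mark matches on either strand to the words searched.
CXCL8: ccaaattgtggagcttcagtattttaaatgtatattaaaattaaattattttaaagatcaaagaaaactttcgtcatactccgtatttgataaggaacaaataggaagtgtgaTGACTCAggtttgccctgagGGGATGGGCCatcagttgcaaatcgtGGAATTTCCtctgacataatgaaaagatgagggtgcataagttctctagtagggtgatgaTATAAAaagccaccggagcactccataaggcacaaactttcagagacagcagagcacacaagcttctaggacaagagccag
CCL3: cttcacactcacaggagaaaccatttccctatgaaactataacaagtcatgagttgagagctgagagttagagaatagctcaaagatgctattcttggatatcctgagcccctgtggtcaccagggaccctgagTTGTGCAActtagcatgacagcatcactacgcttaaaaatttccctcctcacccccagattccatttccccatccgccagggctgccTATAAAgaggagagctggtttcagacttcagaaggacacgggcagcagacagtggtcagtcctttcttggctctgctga
CCL3L3: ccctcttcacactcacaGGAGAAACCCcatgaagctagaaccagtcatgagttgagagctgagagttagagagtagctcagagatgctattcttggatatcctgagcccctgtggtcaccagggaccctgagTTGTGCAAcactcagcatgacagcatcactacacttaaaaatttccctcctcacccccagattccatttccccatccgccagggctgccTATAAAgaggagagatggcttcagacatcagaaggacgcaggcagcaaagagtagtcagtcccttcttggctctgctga

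The words were GGNNNTTCC and a 10-base word of GGG, any 5 bases and CC, both of NF-kB type, TGANTCA for AP-1, TTGCNNAA for C/EBP and TATAAA for the TATA box. CXCL8 held TGANTCA at -137 to -131, the 10-base word at -117 to -108, GGNNNTTCC at -91 to -83 and TATAAA at -31 to -26, counted in bases from the start. CCL3 held TTGCNNAA at -116 to -109 and TATAAA at -29 to -24 in the window shown, the first of 3 listed for it. Its second window held the 10-base word at -112 to -103, counted from that window's own start. CCL3L3 held the 10-base word at -233 to -224, TTGCNNAA at -118 to -111 and TATAAA at -29 to -24. Of 35116 windows of this length in the table, 20.1% held GGNNNTTCC, 58.7% the 10-base word, 7.71% TGANTCA, 10.5% TTGCNNAA and 11.5% TATAAA. A match describes letters and shows no binding. Aligned over 306 columns, the CCL3 and CCL3L3 windows shown were identical at 277 (90.52%), with 17 mismatches and 12 gaps. The table holds 5 of the 7 genes, and the word positions of those 5 are drawn in the map of start windows.

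**Figure D1:**
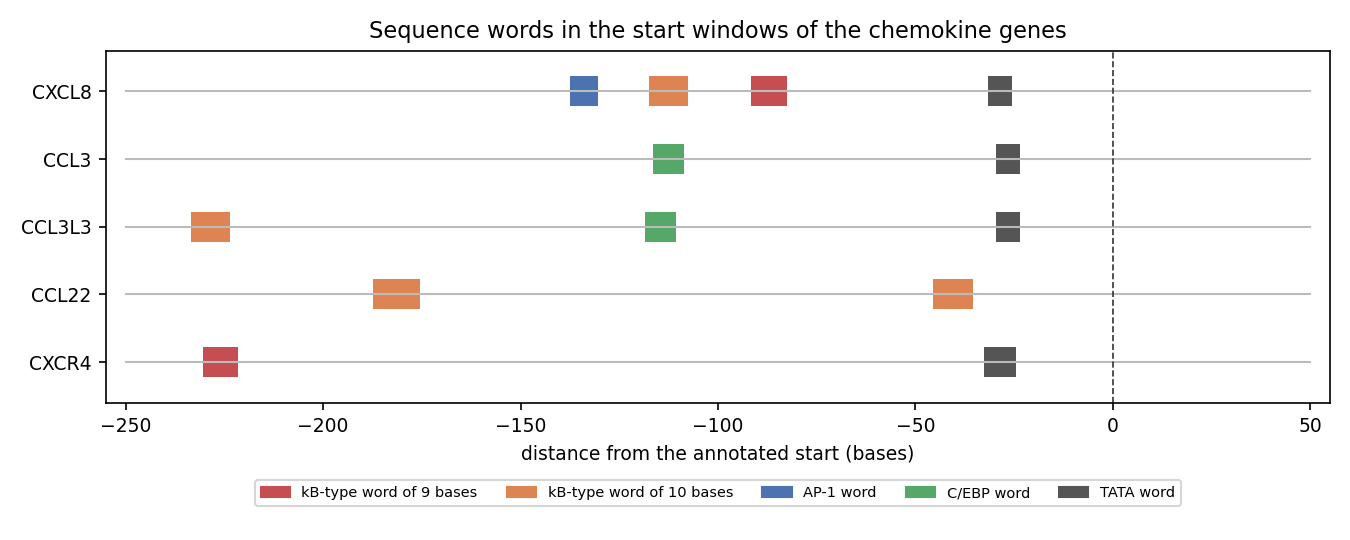
Positions of the searched words (coloured boxes) in the first listed start window of CXCL8, CCL3, CCL3L3, CCL22 and CXCR4. The horizontal axis is the distance from the annotated start in bases. CXCL8 is the gene with a 9-base NF-kB word, a 10-base NF-kB word and an AP-1 word within the window.

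Signals are given below as background-corrected, quantile-normalized log2 values, and a gene is called where limma's p, adjusted by the Benjamini-Hochberg method over 10697 genes, is under 0.05. A probe is detected on an array where its detection p is under 0.01. Arrays are named by the number that opens their column name in the deposited table. The arrays detected 13072 to 15903 probes each, with mean raw signals of 171 to 298. Precision is limited by how few arrays each group has. Of 7 B cell markers, 7 were detected on all Raji arrays and 6 on all DG75 arrays. Treated arrays are numbered 1 to 12 and untreated arrays 13 to 18. What the numbers stand for is not stated, and an order behind them cannot be told apart from treatment. 2 arrays stood apart. On DG75 TPCK array 7, 687 probes were detected that were detected nowhere else, against 50 to 327 on the other arrays. Fibroblast markers were detected there for 6 of 6 genes with a summed raw signal of 5772, against 239 to 384 on the other arrays. Epithelium markers were detected there for 5 of 6 with a sum of 18502, against 238 to 295 elsewhere. Monocyte and macrophage markers summed to 713 on array 7, against 202 to 413 elsewhere. On DG75 Bay-11 array 10, 150 of 3373 probes that were bright in untreated DG75 lay over 2 log2 units below the untreated mean, against 0 to 2 on the other DG75 arrays.

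The lines differed far more than the treatments. In untreated DG75 against untreated Raji, CXCL8 was higher and CCL3, CCL3L3, CCL22, CCR7 and ACKR3 were lower, so 1 member was called higher and 5 lower, while CXCR4 was not called. Over all genes, 38.9% were called, 20.7% higher and 18.2% lower. The arrays of the lines did not overlap for 5 members that were lower in DG75 and 2 that were higher, namely CXCL8 and CXCR4, as for 26.1% and 29.4% of all genes. The median change of the 7 members was -4.88 on the log2 scale, or -4.63 with genes undetected in a line taken at their bound, against 0.03 over all genes. Several markers of other cell types also differed with the line. On DG75 arrays other than array 7, summed raw signals were 36 to 48 for the T cell list (1 of 7 genes on the array, CD3D), 202 to 258 for the monocyte and macrophage list (4 of 8) and 239 to 264 for the fibroblast list (6 of 6). On Raji arrays these sums were 108 to 207, 263 to 413 and 289 to 384. CD3D, CSF1R and COL1A1 were detected on all 9 Raji arrays and on 0 of those 8 DG75 arrays, while CD14 was detected on all of both, and COL1A2, COL3A1, LUM and SPARC on 0 of both. The B cell marker CR2 was likewise detected on all Raji arrays and on 0 DG75 arrays. LYZ, of the monocyte and macrophage list, went the other way, detected on all DG75 arrays but not on Raji arrays 4, 6 and 16. ITGAM of that list was detected on some Raji arrays and on no DG75 array. DCN, of the fibroblast list, was detected on DG75 arrays 7 and 15 and on no Raji array. The part of these markers in the differences between lines was not tested. In RNA from whole cultures, fewer cells that make a transcript and less of it per cell cannot be told apart.

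CCL3 had values of 5.09, 4.68 and 5.11 in untreated DG75, against 10.64, 10.54 and 10.46 in untreated Raji. It was detected on 2 of 3 untreated DG75 arrays and on all 9 Raji arrays, and the lines did not overlap. The log2 difference was -5.59 ± 0.17 (SE, n = 3 each, limma adjusted p = 4.19e-13), or 48.2-fold. Raw signals were 50 to 62 in untreated DG75 and 990 to 1193 in untreated Raji.

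CCL3L3 had values of 6.74, 6.56 and 6.58 in untreated DG75, against 11.65, 11.43 and 11.44 in untreated Raji. Its probe was detected on all 18 arrays and the lines were again fully apart. The log2 difference was -4.88 ± 0.23 (SE, n = 3 each, limma adjusted p = 4.74e-11), or 29.5-fold. The array also holds 3 probes for CCL3L1, a further copy, whose log2 differences between untreated DG75 and Raji were -4.92, -4.65 and -4.60. Probe sequences were not analysed here, and which copies each probe binds was not tested, so signals of CCL3, CCL3L3 and CCL3L1 are uncertain as to the copy.

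CCL22 had values of 4.25, 4.20 and 4.21 in untreated DG75, against 9.68, 9.73 and 9.57 in untreated Raji. The DG75 values were undetected on all 3 arrays, so only a bound can be given there. CCL22 was at least 24.6-fold lower in untreated DG75 (limma adjusted p = 3.61e-13). Such a bound sets the mean of the brighter group against a floor, which on each array is the dimmest detected signal or the probe's own signal, whichever is higher.

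Among the receptors, CCR7 had values of 6.39, 6.49 and 6.52 in untreated DG75, against 11.18, 11.16 and 10.94 in untreated Raji. It was detected on all arrays of both lines, with a log2 difference of -4.63 ± 0.15 (SE, n = 3 each, limma adjusted p = 8.74e-13), or 24.7-fold. ACKR3 had values of 4.73, 4.73 and 4.46 in untreated DG75, against 10.82, 10.82 and 11.01 in untreated Raji. It was undetected on all untreated DG75 arrays and at least 57.2-fold lower there (limma adjusted p = 2.61e-10). In DG75, CCL22 and ACKR3 were detected on array 7 alone, so both passed the filter of at least 3 arrays through Raji. Their untreated DG75 values lie at the floor, and their p-values add no support to the bounds. The calls of CCL3, CCL3L3, CCL22, CCR7 and ACKR3 held with any 1 array left out. They also held in all 10 alternatives of the processing that could be run for this comparison.

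**Figure D2:**
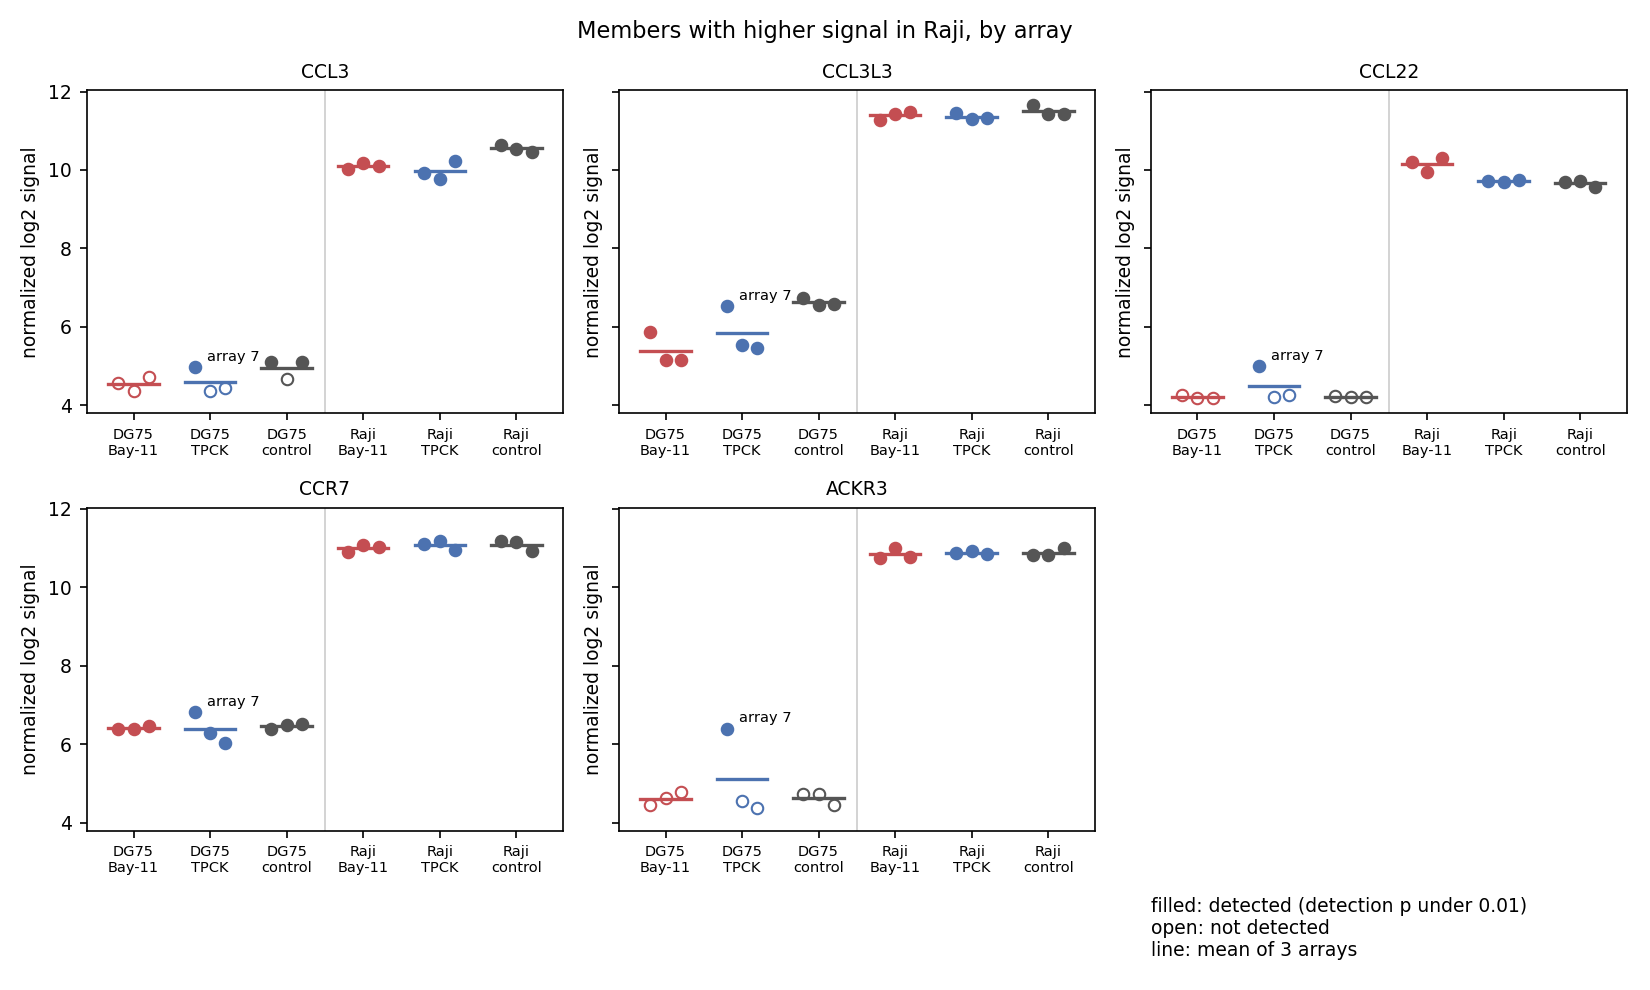
Normalized log2 signal (vertical axes) of CCL3, CCL3L3, CCL22, CCR7 and ACKR3 on each of the 18 arrays, by group. Filled points are detected, open points are not, and lines are means of 3 arrays. All Raji arrays sit above all DG75 arrays for each gene, and array 7 is the highest DG75 TPCK point in each panel.

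CXCR4 was measured by a pair of probes. ILMN_2320888 had values of 8.95, 9.07 and 8.97 in untreated DG75, against 8.59, 8.75 and 8.69 in untreated Raji. These did not overlap, but the log2 difference of 0.32 ± 0.12 was not called (SE, n = 3 each, limma adjusted p = 0.0601 over all kept probes). The brighter probe ILMN_1801584 had values of 10.57, 10.58 and 10.72 in untreated DG75, against 10.16, 10.44 and 10.35 in untreated Raji. Its difference of 0.31 ± 0.96 was not called either (adjusted p = 0.837), and its SE was widened by array 10.

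CXCL8 was the member called higher in untreated DG75. Probe ILMN_2184373, the brighter of its pair, had values of 9.33, 9.07 and 9.47 in untreated DG75, against 6.90, 7.01 and 6.91 in untreated Raji. The log2 difference was 2.35 ± 0.19 (SE, n = 3 each, limma adjusted p = 2.28e-08), or 5.10-fold. The other probe, ILMN_1666733, gave 2.17 ± 0.18 (limma adjusted p = 4.56e-08 over all kept probes).

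CXCL8 was also the member called lower after a treatment in both lines, in Raji with Bay-11 alone. With Bay-11 in DG75 it was 1 of 2 members called lower, beside CCL3L3, where 0.617% of all genes were called and 0.178% were lower. With TPCK in DG75 it was the only member called of the 7, where 0.327% of all genes were called lower. With Bay-11 in Raji it was again the only member called, where 1.51% of all genes were called, 0.879% higher and 0.626% lower. With TPCK in Raji 0 members were called by limma, where 0.439% of all genes were called and 0.206% were lower. There 2 members had an unadjusted p under 0.05, as did 707 of all 10697 genes. Without regard to the test, all treated arrays lay below all untreated arrays for 3 members with Bay-11 and 2 with TPCK in DG75, as for 6.54% and 8.81% of all genes, and for 3 members with each treatment in Raji, as for 14.2% of all genes with Bay-11 and 6.46% with TPCK. None lay wholly above the untreated arrays with TPCK, as 8.65% of all genes did in DG75 and 9.46% in Raji. CXCR4, by probe ILMN_1801584, was among the 3 members that lay below with Bay-11 in DG75 and with each treatment in Raji. That probe was undetected on array 10, and the other probe, ILMN_2320888, overlapped the untreated arrays in all these comparisons. The median change of the 7 members was -0.41 with Bay-11 in DG75. It was -0.05 with the 3 members undetected in a group there (CCL3, CCL22 and ACKR3) set to no change, since they allowed no bound. The median was -0.10 with TPCK in DG75, and -0.11 and -0.15 in Raji. Over all genes these medians were 0.05, 0.02, 0.01 and 0.01. CXCR4 entered the member medians for Bay-11 in DG75 at -2.02, by ILMN_1801584, while its other probe gave 0.10.

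In DG75, CXCL8 had values of 7.89, 7.60 and 7.93 with Bay-11 and 7.83, 8.16 and 7.60 with TPCK, against 9.33, 9.07 and 9.47 untreated. Every treated array lay below every untreated array, while the treatments overlapped each other. The log2 change was -1.48 ± 0.19 with Bay-11 (SE, n = 3 each, limma adjusted p = 0.000908), or 2.80-fold lower. It was -1.43 ± 0.19 with TPCK (SE, n = 3 each, limma adjusted p = 0.000637), or 2.69-fold lower. Raw signals of this probe showed the same separation, at 240 to 321 with Bay-11 and 261 to 363 with TPCK, against 506 to 668 untreated. With the other probe the values were 6.42, 6.84 and 6.67 with Bay-11 and 6.57, 6.83 and 6.84 with TPCK, against 7.93, 8.0 and 8.14 untreated. Its changes were -1.38 and -1.28 (limma adjusted p = 0.000992 and 0.00124 over all kept probes). Over the alternatives of the processing the Bay-11 change ranged over -1.53 to -1.06 and was called in 8 of 10, and the TPCK change ranged over -1.43 to -0.91 and was called in 8 of 12.

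In Raji, where CXCL8 was dimmer, it had values of 6.0, 6.17 and 5.38 with Bay-11 and 6.28, 6.30 and 6.33 with TPCK, against 6.90, 7.01 and 6.91 untreated. All treated arrays lay below all untreated ones on this normalized scale. The log2 change was -1.09 ± 0.19 with Bay-11 (SE, n = 3 each, limma adjusted p = 0.0120), or 2.13-fold lower. With TPCK it was -0.64 ± 0.19 and not called (limma adjusted p = 0.266). Before normalization the separation was not there in full: raw signals were 100, 97 and 63 with Bay-11 and 104, 123 and 130 with TPCK, against 103, 106 and 121 untreated. Mean raw signal over all probes was 206 to 256 on Raji Bay-11 arrays and 243 to 282 on Raji TPCK arrays, against 171 to 202 on untreated ones. With the other probe the Bay-11 change was -0.52 ± 0.18 and not called (limma adjusted p = 0.151 over all kept probes), and Bay-11 array 6 was undetected. The Bay-11 call was also lost without untreated array 17 (adjusted p = 0.0503), with median centring (-0.60, adjusted p = 0.103) and with no normalization between arrays (-0.54, adjusted p = 0.179). Over the alternatives the Bay-11 change ranged over -1.09 to -0.52 and was called in 9 of 12, and the TPCK change ranged over -0.64 to 0.09 and was called in 1 of 12. With no normalization between arrays the TPCK change was 0.09 (adjusted p = 0.765), where the median of all genes was 0.66.

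In order of mean signal, CXCL8 was highest in untreated DG75, then in DG75 with TPCK and DG75 with Bay-11, which overlapped, then in untreated Raji, Raji with TPCK and Raji with Bay-11. CXCL8 in treated DG75 thus still lay above that in untreated Raji on every array, with both probes. The Raji TPCK and Bay-11 arrays overlapped with the dimmer probe but not with the brighter one. The change of CXCL8 in DG75 minus that in Raji was -0.39 ± 0.26 for Bay-11 (limma adjusted p = 0.804) and -0.79 ± 0.26 for TPCK (limma adjusted p = 0.853). Neither difference between lines was called, and a p above the threshold does not show equal changes.

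**Figure D3:**
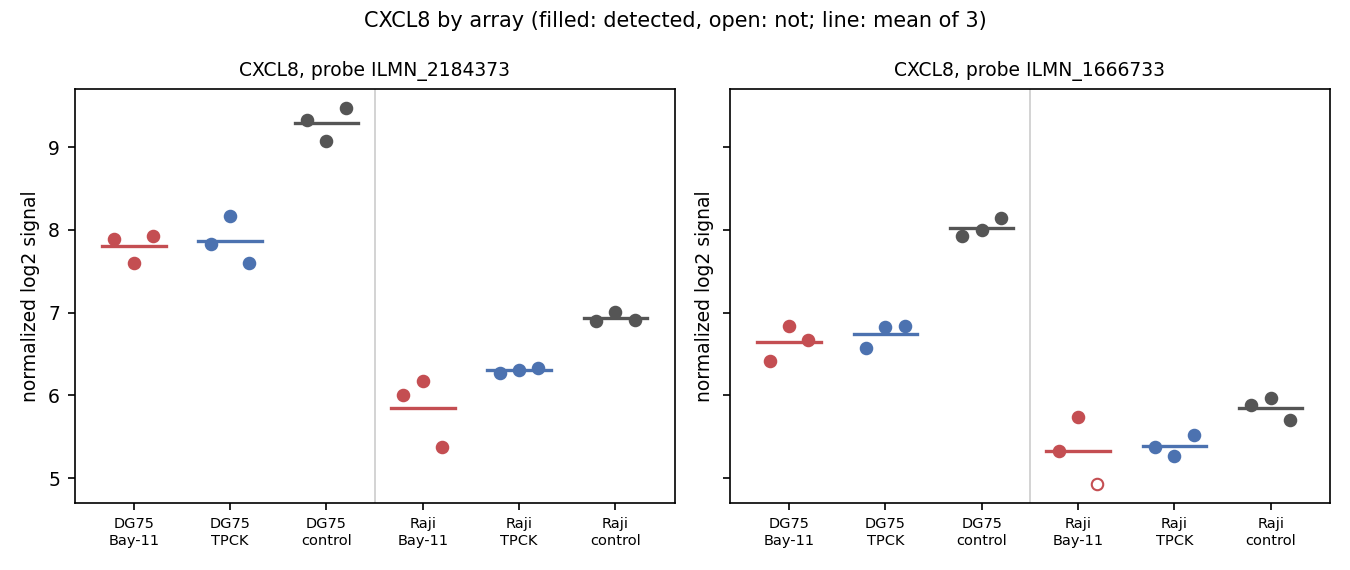
Normalized log2 signal (vertical axis) of both CXCL8 probes on each array, by group. Filled points are detected, the open point is not, and lines are means of 3 arrays. In each line the treated arrays lie below the untreated ones, except that Raji Bay-11 array 5 (5.73) with probe ILMN_1666733 lies above the lowest untreated array (5.70).

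CCL3L3 was the other member called after a treatment. In DG75 it had values of 5.86, 5.15 and 5.14 with Bay-11 and 6.53, 5.54 and 5.46 with TPCK, against 6.74, 6.56 and 6.58 untreated. Both treated groups lay below the untreated group on the normalized scale. Raw signals were 56 to 78 with Bay-11 and 66 to 170 with TPCK, against 92 to 132 untreated, so that the raw TPCK values overlapped the untreated ones. The change with Bay-11 was -1.24 ± 0.23 (SE, n = 3 each, limma adjusted p = 0.0237), or 2.37-fold lower. Leaving out array 11, 13, 14 or 15 ended this call (adjusted p up to 0.119). Over the alternatives of the processing the Bay-11 change ranged over -1.48 to -0.80 and was called in 7 of 10. With TPCK the change was -0.78 ± 0.23 and not called (limma adjusted p = 0.180), where the highest value was that of array 7. Without array 7 it was -1.12 and called (limma adjusted p = 0.00801). The part of the fibroblast and epithelium transcripts on array 7 in this value was not tested.

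In Raji, CCL3L3 had values of 11.28, 11.44 and 11.47 with Bay-11 and 11.45, 11.30 and 11.32 with TPCK, against 11.65, 11.43 and 11.44 untreated. The groups overlapped, and the changes were -0.11 ± 0.23 with Bay-11 and -0.15 ± 0.23 with TPCK, neither called (limma adjusted p = 0.839 and 0.999). The Bay-11 change in DG75 minus that in Raji was -1.13 ± 0.33 and not called (limma adjusted p = 0.518). Without arrays 7 and 10 it was -1.37 ± 0.16 and called (limma adjusted p = 0.00349), 1 of 3 genes called over all genes in that fit. Array 10 had the highest CCL3L3 value with Bay-11 in DG75 (5.86), and array 7 the highest with TPCK (6.53). Leaving them out thus enlarged the Bay-11 change and narrowed the spread, with fewer arrays in those groups. Of the CCL3L1 probes, 1 of 3 was called lower with Bay-11 in DG75 (limma adjusted p = 0.0186 over all kept probes). It was undetected on all 3 Bay-11 arrays, so that it was at least 1.16-fold lower there.

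CCL3 was not called after any treatment. In Raji it had values of 10.02, 10.18 and 10.11 with Bay-11 and 9.93, 9.76 and 10.24 with TPCK, against 10.64, 10.54 and 10.46 untreated. Both treated groups lay below the untreated group, as 14.2% of all genes did with Bay-11 and 6.46% with TPCK. Raw signals overlapped, at 919 to 1148 with Bay-11 and 1009 to 1560 with TPCK, against 990 to 1193 untreated. The changes were -0.45 ± 0.17 and -0.57 ± 0.17 (limma adjusted p = 0.188 and 0.305). In DG75 the probe was undetected on all Bay-11 arrays and detected with TPCK on array 7 alone.

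CCL22 had values of 10.19, 9.94 and 10.31 in Raji with Bay-11 and 9.71, 9.71 and 9.75 with TPCK, against 9.68, 9.73 and 9.57 untreated. All Bay-11 arrays lay above the untreated ones, as for 16.8% of all genes, while TPCK arrays overlapped them. The Bay-11 change was 0.49 ± 0.16 and not called (limma adjusted p = 0.139), but it was called in 6 of 12 alternatives, with a range of 0.43 to 0.91. Without arrays 7 and 10, which are DG75 arrays that share the estimate of spread, the same change had an SE of 0.10 (limma adjusted p = 0.0213). In DG75 CCL22 was undetected on every array but array 7, where its value was 5.00.

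The receptors were not called after either treatment. CCR7 in Raji lay between 10.90 and 11.18 on all 9 arrays, and in DG75 between 6.04 and 6.81. Its changes were -0.05 with Bay-11 and -0.09 with TPCK in DG75, and -0.09 and -0.02 in Raji, each with an SE of 0.15. The 95% intervals of these changes all lay within -0.42 and 0.31. With no normalization between arrays, the TPCK change of CCR7 in Raji turned to 0.65 (adjusted p = 0.0492), level with the median of all genes there (0.66). ACKR3 in Raji lay between 10.75 and 11.01 on all arrays, with changes of -0.04 ± 0.34 for Bay-11 and 0.01 ± 0.34 for TPCK. In DG75 it was detected on array 7 alone, at 6.40, against 4.38 to 4.77 on the other 8 arrays. Fibroblast and epithelium markers were bright on that array, and their part in this value was not tested.

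CXCR4 in DG75 with Bay-11 depended on array 10. Probe ILMN_1801584 was undetected there, with a value of 4.77 and a raw signal of 50, against 10.46 and 10.56 on the other Bay-11 arrays and 10.57, 10.58 and 10.72 untreated. The change of -2.02 ± 0.96 was not called (limma adjusted p = 0.266), and without arrays 7 and 10 it was -0.11 ± 0.15 (adjusted p = 0.846). Probe ILMN_2320888 on array 10 had 9.21, beside 9.21 and 8.89 on the other Bay-11 arrays, against 8.95, 9.07 and 8.97 untreated, a change of 0.10 ± 0.12. CXCR4 was thus low on array 10 with 1 of its probes and not with the other. In Raji ILMN_1801584 had 9.75, 10.14 and 9.60 with Bay-11 and 9.92, 9.85 and 10.10 with TPCK, against 10.16, 10.44 and 10.35 untreated. Without arrays 7 and 10 its change with Bay-11 was -0.49 ± 0.14 and not called (limma adjusted p = 0.0606), while ILMN_2320888 gave 0.00 ± 0.12 in the fit of all arrays.

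**Figure D4:**
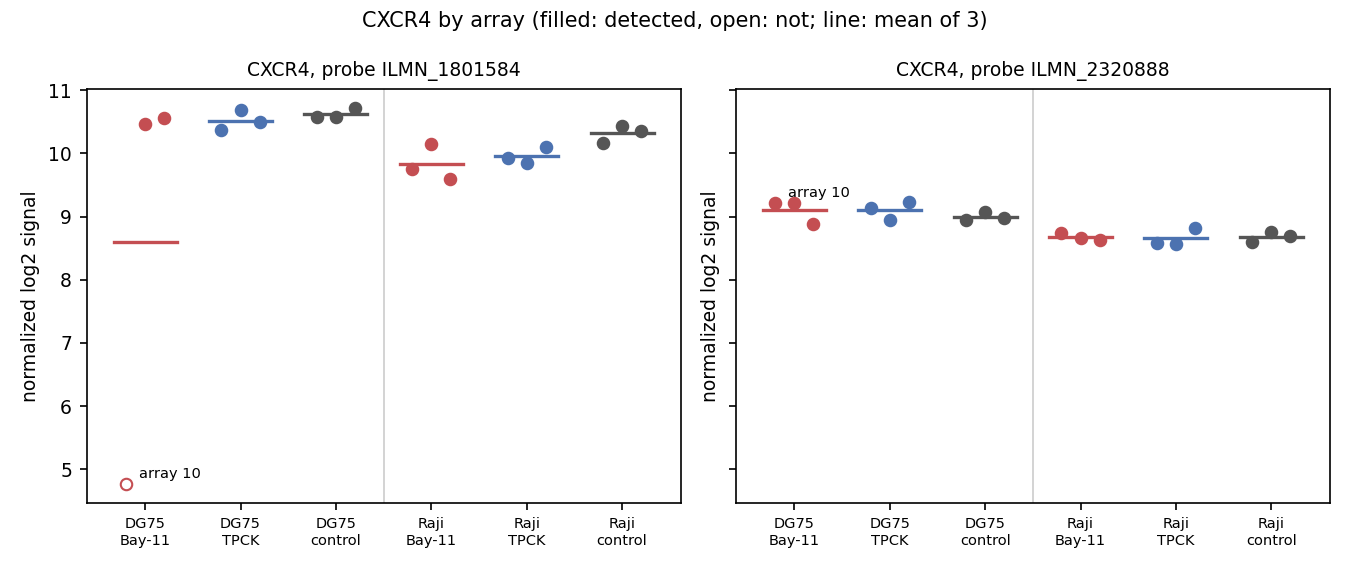
Normalized log2 signal (vertical axis) of both CXCR4 probes on each array, by group. Filled points are detected, the open point is not, and lines are means of 3 arrays. Array 10 is at 4.77 with ILMN_1801584 and at 9.21 with ILMN_2320888.

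**Figure D5:**
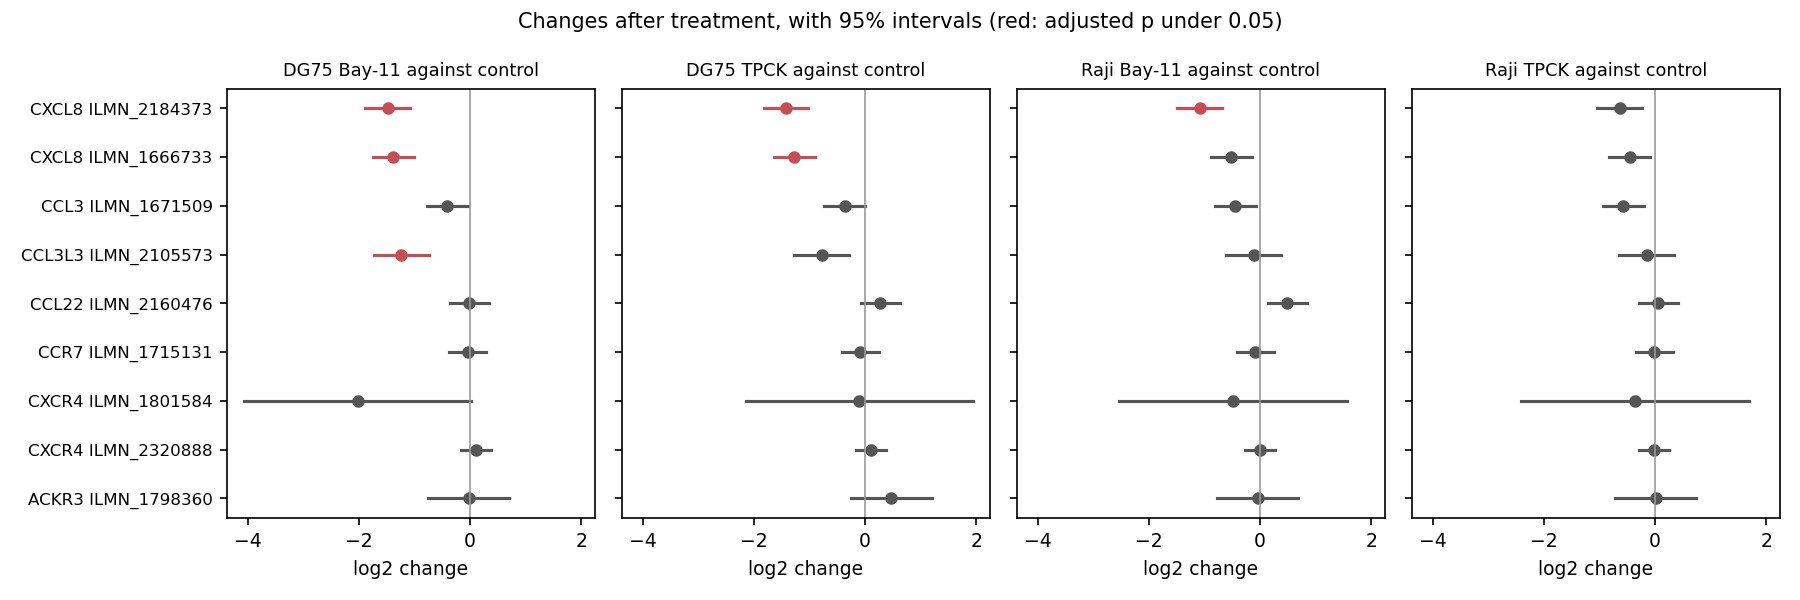
Log2 change (horizontal axes) after each treatment for the 9 probes of the 7 genes, from the fit of every kept probe, with 95% intervals. Red points have an adjusted p under 0.05 over all kept probes. Both CXCL8 probes are red in both DG75 panels, and the wide intervals are those of the CXCR4 probe that was undetected on array 10.

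Other genes of the chemokine system were counted on lists that were chosen with earlier results of these data known. Of 12 other chemokines tested, 0 were called after any treatment by limma, with 1 or 2 at an unadjusted p under 0.05 in each comparison. Over all 10697 genes, such a p was found for 2006 with Bay-11 and 707 with TPCK in Raji, and for 2025 and 1230 in DG75. In untreated DG75 against untreated Raji, where 18.2% of all genes were lower and 20.7% higher, 7 of the 12 were lower and 0 higher. They included CCL4L1, a copy of the T cell attractant CCL4 (-5.08, detected on 1 of 3 untreated DG75 arrays), CCL3L1 (-4.92, detected on 2 of 3) and CCL5, also named RANTES (-3.80, detected on 3 of 3). The interferon-inducible CXCL10 was undetected on all untreated DG75 arrays and at least 10.01-fold lower there. CX3CL1 and CCL17 were detected on no DG75 array, and CXCL9 and CCL4L1 on fewer DG75 arrays than the filter required. They passed the filter through Raji, where they are high, so the count of lower genes is not independent of the filter. The list's median was -1.31, against 0.03 over all genes. It was -0.53 with the 7 genes undetected in a line taken at their bound. Of these, CXCL1, CXCL3 and CCL18 allowed no bound and were set to no change. Without arrays 7 and 10, 2 of the 12 (CXCL9 and CCL23) were called lower in Raji with Bay-11, in a fit that called 1.88% of all genes lower.

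Of 6 other receptors tested, 0 were called after any treatment by limma. In each comparison 1 or 2 had an unadjusted p under 0.05, beside the counts over all genes given above. Without arrays 7 and 10 GPR183 was called lower with TPCK in DG75 (-0.70 ± 0.14, limma adjusted p = 0.0404), where 0.374% of all genes were. In untreated DG75 against untreated Raji 2 of the 6 were lower and 0 higher, beside 18.2% and 20.7% of all genes. The lower ones were GPR183, which positions B cells in follicles through oxysterols (-3.57 ± 0.16), and CXCR5, the receptor for CXCL13 (-1.19 ± 0.18). In the fit of all arrays neither gene was called with TPCK in DG75, where GPR183 had a change of -0.63 ± 0.16 (limma adjusted p = 0.115) and CXCR5 one of 0.68 ± 0.18 (limma adjusted p = 0.122).

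Of 35 tested genes that carry the signal of chemokine receptors inside the cell, 0 were called after treatment by limma. An unadjusted p under 0.05 was found for 9 in Raji and 10 in DG75 with Bay-11, and for 2 in each line with TPCK. These stand beside the counts over all genes given above. Without arrays 7 and 10, GNAI3 was called lower in Raji with Bay-11 and RAP1B lower in DG75 with TPCK. That fit called 1.88% and 0.374% of all genes lower in these comparisons. Between the untreated lines 8 were higher and 10 lower in DG75, beside 20.7% and 18.2% of all genes. PIK3CD, the delta catalytic subunit of PI3 kinase, was lower in DG75 (-2.21). GNG7, a G protein gamma subunit, was undetected on all untreated DG75 arrays and at least 4.57-fold lower there. The phospholipase PLCB2 was undetected on all untreated Raji arrays and at least 2.29-fold higher in untreated DG75. GNG7 passed the filter through Raji and PLCB2 through DG75, in each case the line where the gene is high. Of 7 RGS proteins, which shorten G protein signals, RGS1 was lower in Raji with Bay-11 (-0.66 ± 0.15, limma adjusted p = 0.0449), as were 0.626% of all genes. In the other treatment comparisons 0 were called, with 3 to 5 at an unadjusted p under 0.05, beside the same counts over all genes. In untreated DG75 RGS1 (-1.76), RGS16 (-1.40) and RGS19 (-1.27) were lower than in untreated Raji, and RGS2 was higher (1.82). Of all genes, 18.2% were lower and 20.7% higher there.

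Of 19 regulators known to act on inducible chemokine genes or their mRNAs, NFKBIZ, an inducible nuclear IkB protein, was called lower in DG75 with Bay-11 (-0.52 ± 0.10, limma adjusted p = 0.0362). Of all genes, 0.178% were called lower in that comparison. Without arrays 7 and 10, 0 of the 19 were called there. In DG75 with TPCK 0 were called by limma, with 5 at an unadjusted p under 0.05, as were 1230 of all 10697 genes. FOSB, a subunit of AP-1, was the 1 gene called in Raji, at -1.74 ± 0.16 with Bay-11 and -1.06 ± 0.16 with TPCK. Of all genes, 0.626% and 0.206% were called lower there. Without arrays 7 and 10, 4 of the 19 (FOSB, EGR1, ZFP36 and FOS) were called lower in Raji with Bay-11, as were 1.88% of all genes. In either direction that fit called 4.55% of all genes, against 1.51% with all arrays. Between the untreated lines 2 were higher in DG75 and 7 lower, beside 20.7% and 18.2% of all genes. TNFAIP3, an inhibitor of NF-kB signalling (-2.19), and NFKB2 (-1.90) were among the lower ones, and CEBPB was higher (1.10).

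For each member, the genes with the most similar course were found by Pearson's r of deviations from each line's own mean over the 18 arrays. For CXCL8 these were DUSP10, a phosphatase of stress kinases (r = 0.93), TIPARP (0.91) and TLR6 (0.91), and for CCL3 they were CCL3L1 (0.83), ACTR3B (0.82) and RGS1 (0.79). CCL3L3 went most with RNF103 (0.84), CCL22 with SLFN11 (0.92) and CCR7 with AUTS2 (0.82). For CXCR4 and ACKR3 the highest values were with PRMT1 (0.99) and PALLD (0.97), and without arrays 7 and 10 they were 0.93 and 0.73. These arrays share their groups and normalization, and the values carry no test.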

How the data were processed

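Gene expression was measured on Illumina bead arrays. The authors deposited a raw table of log2 bead signals without normalization and, per the file headers, a detection p-value per probe and array. No source used here names the scanner software. A second deposited table, of log2 values for 22789 probes, served as an alternative. In it 8 columns equal raw columns, and 10 are centred near 0 by an unstated method, so that their centring is unknown. The members, gene lists and array exclusions were chosen with earlier results of these data known.

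Raw signals were corrected by normexp with an offset of 16 and quantile normalized in limma 3.58.1 (R 4.3.3). Probes detected on at least 3 arrays were kept (17652). The brightest kept probe stood for each gene, with symbols from the platform annotation. The 6 group means were fitted to 18 arrays with lmFit and eBayes (12 residual and 4.26 prior degrees of freedom), and p-values were adjusted over 10697 genes. The fit was tested on simulated data. Named genes are the 7 members, the 3 most similar genes of each (some printed) and up to 4 members of each list. Alternatives were other normalizations, offset, filter, probes, array subsets and the second table.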

Additional observations from a re-analysis of the deposited data

How the results depend on the processing

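The count of 6 members called between the untreated lines held under every alternative run and with any 1 array left out. Other counts of members called moved. For Bay-11 in DG75 (2 in the main analysis) it was 1 with median centring over all probes, 0 with no normalization between arrays, 0 with only the arrays compared, and 1 to 2 with 1 array left out. For TPCK in DG75 (1) it was 0 with median centring, 0 with no normalization, 2 without arrays 7 and 10, and 1 to 2 with 1 array left out. It was also 0 in the deposited processed table, with and without the replicate block, where all columns of this comparison equal raw ones, without normalization. For Bay-11 in Raji (1) it was 2 with an offset of 50, 0 with the other probe of CXCL8 and CXCR4, 2 without arrays 7 and 10, 2 in the deposited table and 2 with the block, and 0 to 1 with 1 array left out. It stayed 1 with median centring and with no normalization, but there the called gene was CCL22, higher (adjusted p = 0.0354 and 0.0453), and not CXCL8, lower (adjusted p = 0.103 and 0.179). For TPCK in Raji (0) it was 1 with median centring and 2 with no normalization, all higher, and 1 each, lower, with an offset of 50 and with only the arrays compared. For the difference in the Bay-11 change it was 1 without arrays 7 and 10. Single-array omissions left both differences between lines and Raji TPCK at 0. CCR7 with TPCK in Raji reversed to 0.65 with no normalization. Median changes of all genes were 0.30 to 0.55 with median centring and 0.35 to 0.66 with no normalization in the treatment comparisons. Centring over kept probes, added after the counts with all probes had been seen, changed no count of members called. Otherwise the causes were not tested. Of 910 values of single genes under alternatives, 794 counted as the same. That is a call kept on its side, or an uncalled value that stayed uncalled and moved by less than the pooled group SD. Of the rest, 85 uncalled values moved further, 17 lost a call, 13 gained one on the same side and 1 reversed.

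Replicate numbers appear in the deposited processed table only, and deviations of same-numbered samples correlated between -0.164 and 0.104, so the numbers were not taken as pairs. With the replicate block 1168 of 8042 genes were called for Bay-11 in Raji (1623 of 8663 without), 42 of 8088 for TPCK in Raji (180 of 8697 without) and 47 of 10697 for TPCK in DG75 (43 without). In Raji the block fit took only genes with no blank, so block and gene set changed together.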
